A study of Triticum aestivum with 4 samples.

Results

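The miR169 family comprised 7 of the 371 known miRNAs listed in leaves of field-grown winter wheat (*Triticum aestivum*). All entries that the deposited table places under miR169 were taken, namely miR169a-5p, miR169b-5p, miR169g, miR169n, miR169b-3p, miR169f-3p and miR169o-3p. Small RNA was sequenced from leaves of the cultivar Shimai 22, a semi-winter variety, with no mutant or treatment in the design. The uppermost fully expanded leaves were taken at the three-leaf stage in autumn, at winter dormancy, at spring green-up and at jointing, when the stem starts to elongate. RNA of 3 biological replicates was mixed at each stage, so there was 1 library per stage. Levels are given in reads per 1000000 mapped reads (RPM), and 1 read was worth between 0.0458 RPM at jointing and 0.0552 RPM at spring green-up. Differences between plants could not be measured, and every interval below is a 95% interval that covers counting error only. These intervals treat each read as an independent molecule, which PCR copies are not, so they may be too narrow.

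Plant miRNAs are cut as a duplex from a hairpin precursor. One strand is loaded into an ARGONAUTE protein and guides it to complementary mRNAs, while the opposite strand, the miRNA*, is usually degraded. In miR169 the loaded strand comes from the 5p arm and pairs with mRNAs of NF-YA, the subunit of the heterotrimeric factor NF-Y that recognises the CCAAT box. In Arabidopsis the family is known for its links to drought and nitrogen supply and to stress-dependent flowering. Target mRNAs were not measured in these small RNA libraries, so the link to NF-YA is background here.

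The sequences of the 4 names on the 5p arm are shown because they share a seed and differ at few bases, which bears on how reads were divided between the names. Bases 2 to 8, the seed, are in capitals, and all sequences are written 5′ to 3′.
miR169g: uAGCCAAGgaugacuugccugu
miR169b-5p: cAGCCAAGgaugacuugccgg
miR169a-5p: cAGCCAAGgaugacuugccga
miR169n: uAGCCAAGaaugacuugccua
The names miR169g and miR169n carry no arm label and were placed on the 5p arm because they have the same seed as miR169a-5p and miR169b-5p. None of the other 364 known miRNAs had this seed. The 3 names other than miR169n share an unbroken stretch of 18 nt, which covers positions 2 to 19 of miR169g. Counted from position 1 at the 5′ end of miR169g, miR169b-5p differs from it by U1C and U20G, and miR169n by G9A and G21A. These mismatches were counted without gaps over 21 bases and leave out the last base of miR169g, which has 22 nt. Substitutions, insertions and deletions together numbered 3 for either pair. The sequences of miR169a-5p and miR169b-5p differ at the last base only, A21G, with miR169a-5p as the reference. Known miRNAs were annotated with up to 2 mismatches by the study's Results, or fewer than 2 by its Methods. At up to 2, reads could be exchanged between miR169g and miR169b-5p, miR169g and miR169n, or miR169a-5p and miR169b-5p. At fewer than 2, only miR169a-5p and miR169b-5p are near enough. The other pairs of 5p names differ by 3 or 4 mismatches.

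The 3 names on the 3p arm, which is the miRNA* side of this family, are shown because a different one of them was listed at different stages.
miR169f-3p: gGCAAGUCcguccuuggcuaca
miR169b-3p: uGGGCAAGucauccuggcuacc
miR169o-3p: gGUGGGUCuucuuggcuagc
These sequences are less alike than those of the 5p arm. Substitutions, insertions and deletions together numbered 6 between miR169f-3p and miR169b-3p, and 8 between miR169o-3p and either of them. Their longest common stretch was 6 nt. When each was paired with miR169g in a predicted duplex, miR169b-3p formed 19 base pairs at -34.1 kcal/mol, miR169f-3p 19 base pairs at -33.4 kcal/mol and miR169o-3p 18 base pairs at -26.4 kcal/mol. The G-U pairs among them numbered 1 for miR169b-3p, 1 for miR169f-3p and 4 for miR169o-3p. In the duplex of miR169g with miR169b-3p both strands kept an unpaired 3′ tail of 2 nt. The first base of miR169b-3p was also unpaired, since its pairing began at position 2, so that end was not a plain overhang. The other duplexes with miR169g had a tail of 2 nt on the 3p strand and 3 nt on miR169g. Pairing says nothing of whether the strands come from 1 precursor, and precursors of known miRNAs were not analysed here.

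The level of miR169g was 411.1 RPM at the three-leaf stage (402.3 to 420.0), 356.8 RPM at winter dormancy (348.7 to 365.1), 404.1 RPM at spring green-up (394.9 to 413.4) and 158.9 RPM at jointing (153.7 to 164.3). It was the only name of the family above 0 in all 4 libraries, as were 179 of the 371 known miRNAs. Levels were high at the first 3 stages and lowest at jointing.

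At jointing miR169g was 2.54-fold lower than at spring green-up (2.44 to 2.65), 2.25-fold lower than at winter dormancy (2.16 to 2.34) and 2.59-fold lower than at the three-leaf stage (2.49 to 2.69). Scaled by the total of all listed known miRNAs, the difference from winter dormancy was below 2-fold, at -0.81 on the log2 scale. The spring green-up and three-leaf levels, neighbours in the order, were not separated by counting error (exact conditional binomial test on estimated reads, two-sided, p = 0.284, and 0.308 after Benjamini-Hochberg adjustment over 1855 comparisons). Their ratio, spring green-up over three-leaf, was 0.983 (0.952 to 1.01). Winter dormancy was 1.15-fold below the three-leaf stage (1.12 to 1.19).

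The other 5p names were listed at single stages or at low levels. At winter dormancy miR169b-5p had 148.0 RPM (142.8 to 153.3), with a listed 0 in the remaining libraries. At jointing miR169a-5p, which differs from it by 1 base, had 7.5 RPM (6.41 to 8.75) and was listed at 0 elsewhere. For miR169n the values were 2.9 RPM at the three-leaf stage, 10.9 RPM at winter dormancy, a listed 0 at spring green-up and 1.9 RPM at jointing. Thus the winter library was the highest for miR169n and the only one with miR169b-5p. At winter dormancy miR169n was 3.76-fold above the three-leaf stage (2.80 to 5.09). These low values rest on few reads, 224 at winter dormancy and 59 at the three-leaf stage. Summed with miR169g, from which it differs by 2 mismatches, the same comparison had a log2 fold of -0.17.

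A listed 0 need not mean that no read was found, since the lowest value listed above 0 for a known miRNA corresponded to 6 reads at winter dormancy and 11 reads at jointing. No fold of a single name is therefore given against a listed 0, while the sums below count a listed 0 as 0.

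Each library listed exactly 1 of the 3p names. It was miR169f-3p at the three-leaf stage, with 103.4 RPM (99.0 to 107.9), and at winter dormancy, with 381.9 RPM (373.5 to 390.4). At spring green-up it was miR169o-3p, with 47.0 RPM (43.9 to 50.3), and at jointing it was miR169b-3p, with 103.9 RPM (99.7 to 108.3). In all other stages these names were listed at 0. At winter dormancy miR169f-3p was 3.69-fold above the three-leaf stage (3.52 to 3.88), which was the only contrast of a 3p name in which neither library was at 0.

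**Figure D1:**
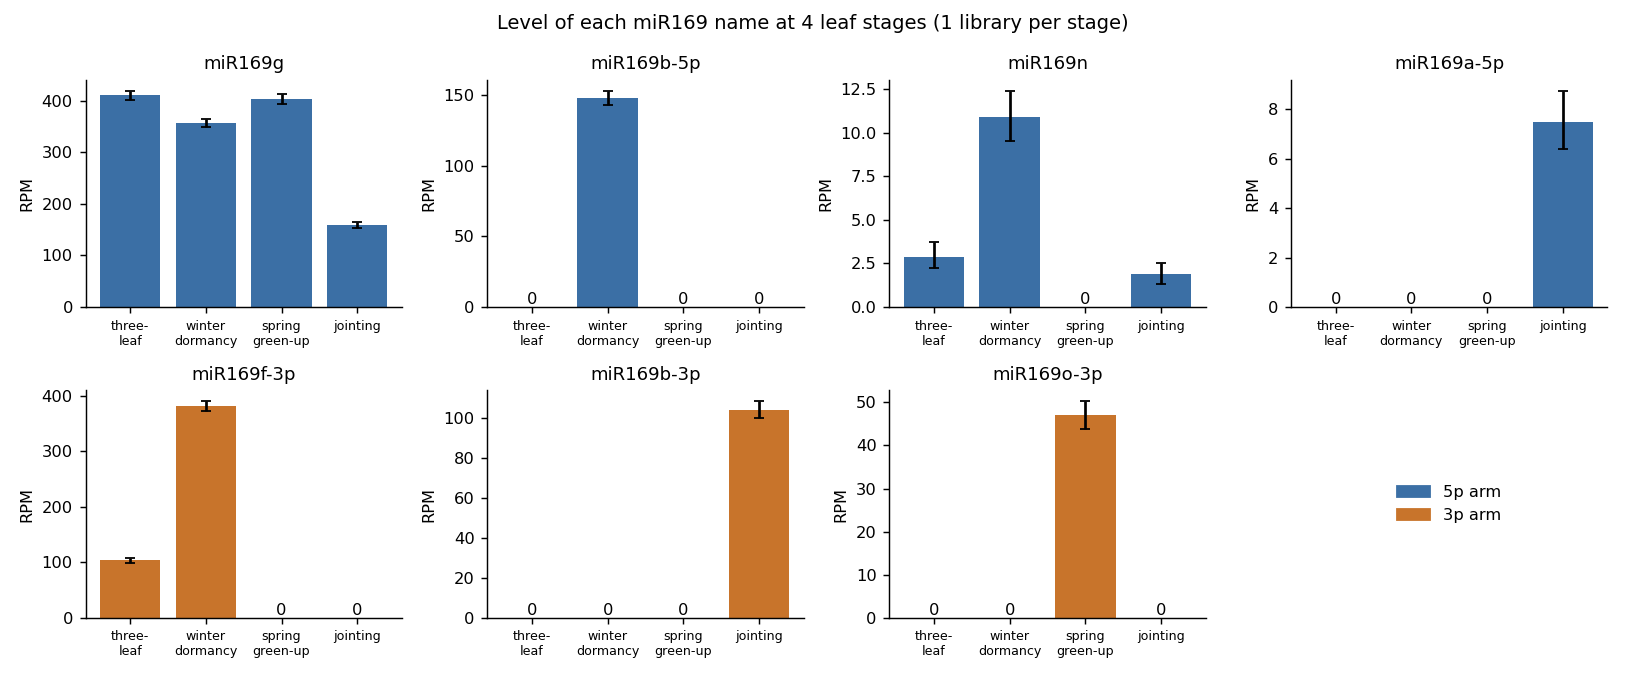
Level of each miR169 name in RPM (vertical axis, linear and starting at 0, with its own scale in each panel) in the library of each stage (horizontal axis); blue marks the 5p arm and orange the 3p arm. Bars are single libraries, error bars are 95% Poisson intervals for counting error, and a 0 above the axis marks a listed 0. Only miR169g has a bar at every stage, and the 3p bars of the lower row fall on a different name before, at and after spring green-up.

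By the rule used for these data, a miRNA was called different between 2 libraries if its levels were over 2-fold apart and over 5 RPM in 1 library or more. A value under 3 reads was set to 3 reads for this rule. The p-value limit that the study set beside its fold and level limits was not applied. At winter dormancy against the three-leaf stage, 3 of the 7 names were higher (miR169f-3p, miR169b-5p and miR169n) and 0 lower, where 8.63% of all known miRNAs were higher and 7.82% lower. At spring green-up against winter dormancy the same 3 names were lower and miR169o-3p was higher. Over all known miRNAs 18.1% were lower and 12.1% higher in that comparison. At jointing against spring green-up, miR169b-3p and miR169a-5p were higher and miR169g and miR169o-3p lower, where 26.1% of all known miRNAs were higher and 9.43% lower. At jointing against winter dormancy, miR169f-3p, miR169g, miR169b-5p and miR169n were lower and miR169b-3p and miR169a-5p higher, where 16.4% of all known miRNAs were lower and 23.7% higher.

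Taking any pair of the 4 libraries, 7 of the 7 names were called, against 59.8% of all known miRNAs. Listed zeros carry much of this count. With listed zeros treated as missing, 3 of the 7 names were called (miR169f-3p, miR169g and miR169n), beside 35.3% of all known miRNAs. At winter dormancy against the three-leaf stage, 32 of all known miRNAs were higher and 29 lower per mapped read, and 24 higher and 37 lower when scaled by the total of all listed known miRNAs. The 3 miR169 names were higher under both.

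Because the names of an arm are partly near-identical and partly exclusive of one another, the arms were also summed. The 4 names of the 5p arm summed to 414.0 RPM at the three-leaf stage (405.2 to 423.0), 515.7 RPM at winter dormancy (505.9 to 525.6), 404.1 RPM at spring green-up (394.9 to 413.4) and 168.3 RPM at jointing (162.9 to 173.8). The 5p sum was thus steady within 1.28-fold over the first 3 stages and lowest at jointing. At jointing it was 2.40-fold lower than at spring green-up (2.31 to 2.50) and 3.06-fold lower than at winter dormancy (2.95 to 3.18). At winter dormancy the sum was 1.25-fold above the three-leaf stage (1.21 to 1.28), although miR169g itself was lower. The direction of this difference rests on miR169b-5p, which is 2 mismatches away from miR169g.

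The 3p arm varied more. Its sums were 103.4 RPM at the three-leaf stage, 381.9 RPM at winter dormancy, 47.0 RPM at spring green-up and 103.9 RPM at jointing. At spring green-up the 3p sum was 8.13-fold lower than at winter dormancy (7.57 to 8.73), and at jointing it was 2.21-fold higher than at spring green-up (2.04 to 2.39). Jointing and the three-leaf stage had nearly the same 3p sum, with a ratio of 1.005 (0.946 to 1.07), although it came from miR169b-3p at jointing and from miR169f-3p at the three-leaf stage. The cause of the change of name between stages was not tested.

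The 3p arm accordingly held a changing share of the family. By exact Clopper-Pearson intervals, it made up 19.98% of the miR169 reads at the three-leaf stage (19.2 to 20.8%), 42.5% at winter dormancy (41.8 to 43.3%), 10.4% at spring green-up (9.77 to 11.1%) and 38.2% at jointing (36.9 to 39.4%). The intervals of the 4 stages do not overlap. The 5p arm remained the more abundant one at every stage. The ratio of 3p to 5p was 0.741 at winter dormancy (0.719 to 0.762), against 0.250 at the three-leaf stage (0.238 to 0.262). The highest ratio was 6.37-fold the lowest. In 18 other families with named 3p and 5p entries above 0 at all stages and more than 50 RPM on average, the median of this span was 3.04-fold, and 3 of them, miR160, miR6224 and the joint family of miR165 and miR166, had a wider one. The bases differ, because the 5p value of miR169 includes miR169g and miR169n, which were placed on that arm by sequence, while the other families were taken by named arms only. By named arms alone miR169 had a listed 0 on the 5p arm at the three-leaf stage and at spring green-up and would give no such span.

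**Figure D2:**
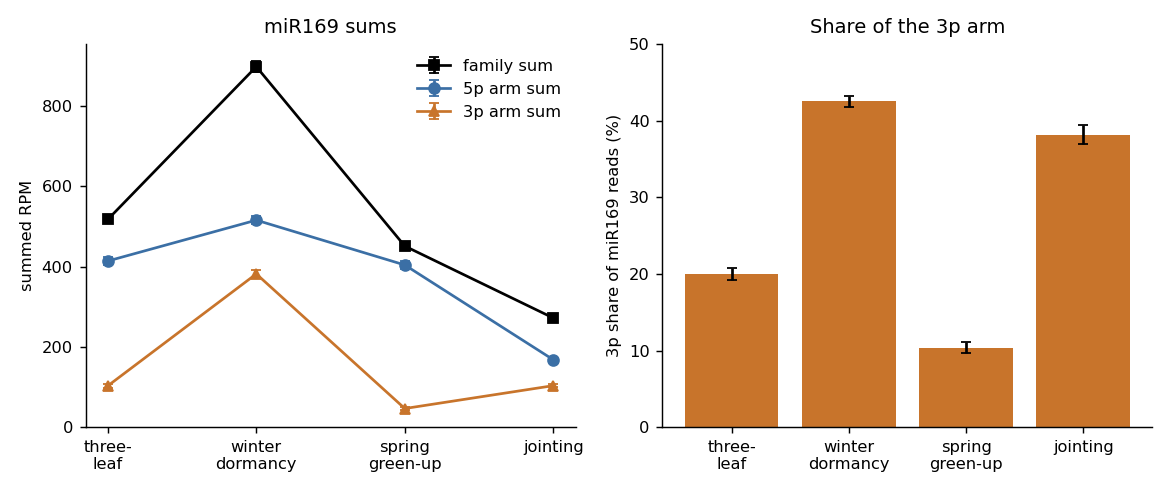
Left, summed RPM of the miR169 family (black squares), of its 5p arm (blue circles) and of its 3p arm (orange triangles) in the library of each stage; right, share of the 3p arm in the miR169 reads in percent. Error bars are 95% counting intervals, Poisson on the left and exact binomial on the right. The 3p sum peaks with 381.9 RPM at winter dormancy, where its share is 42.5%, and both are lowest at spring green-up.

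Summed over all 7 names, miR169 had 517.4 RPM at the three-leaf stage (507.6 to 527.4), 897.6 RPM at winter dormancy (884.7 to 910.6), 451.1 RPM at spring green-up (441.3 to 461.0) and 272.2 RPM at jointing (265.3 to 279.2). The winter library was the highest and the jointing library the lowest. Among the 289 known families the sum ranked 28th at the three-leaf stage, 22nd at winter dormancy, 27th at spring green-up and 43rd at jointing. It was 0.397% of the summed RPM of known miRNAs at winter dormancy and 0.154% at jointing.

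The family sum at winter dormancy was 1.73-fold that of the three-leaf stage (1.69 to 1.78). At spring green-up it was 1.99-fold lower than at winter dormancy, with an interval of 1.94 to 2.04 that spans the 2-fold line. At jointing it was 1.66-fold lower than at spring green-up (1.60 to 1.71) and 1.90-fold lower than at the three-leaf stage (1.84 to 1.96). Of the 6 pairs of libraries, only jointing against winter dormancy passed the rule, 3.30-fold lower at jointing (3.20 to 3.40), as did 14.5% of all known families in that direction. The family sum hides differences between the arms. At spring green-up against winter dormancy, the 3p sum, from a different name in each library, was 8.13-fold lower and the 5p sum 1.28-fold lower. At jointing against the three-leaf stage, the 5p sum was 2.46-fold lower, while the 3p sum had a ratio of 1.005. At winter dormancy against the three-leaf stage, most of the rise of the family sum came from the 3p arm. At jointing against spring green-up a lower 5p sum was set against a higher 3p sum.

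For context, 12 families whose main known targets are genes of transcription factors were compared, among them miR159 (MYB), miR164 (NAC), miR165 with miR166 (HD-ZIP III), miR172 (AP2) and miR319 (TCP). In this list miR169 ranked 10th by mean level, with 534.6 RPM over the 4 libraries, between miR319 with 868.0 RPM and miR160 with 407.2 RPM. By its highest level over its lowest it ranked 4th, at 3.30-fold, after miR319, miR172 and miR160. At jointing against winter dormancy, 4 of the 12 were lower (miR159, miR164, miR165 with miR166, and miR169) and 2 higher (miR160 and miR172), where 14.5% of all families were lower and 22.5% higher. The log2 fold of miR169, -1.72, was the lowest of the 12, while at the other pairs it ranked 3rd to 10th from the top. At jointing against winter dormancy the median was -0.60 for the list. It was 0.07 for all families above 0 in at least 1 of these 2 libraries, with values under 3 reads set to 3 reads. Scaled by the total of all listed known miRNAs, 3 of the 12 were lower and 3 higher, and of all 289 families 33 were lower and 78 higher, against 42 lower and 65 higher per mapped read.

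At winter dormancy against the three-leaf stage, miR164 and the joint miR165 and miR166 family were higher and miR319 lower, where 7.61% of all families were higher and 7.27% lower. The log2 fold of miR169 was 0.79, the third from the top in the list, below the level of a call. This split of the list depended on scaling, with 0 higher and 3 lower when scaled by the total of all listed known miRNAs, and 2 higher and 3 lower under median-of-ratios scaling. Over all 289 families the numbers were 17 higher and 29 lower when scaled by the total, 22 higher and 24 lower under median-of-ratios scaling, and 22 higher and 21 lower per mapped read.

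**Figure D3:**
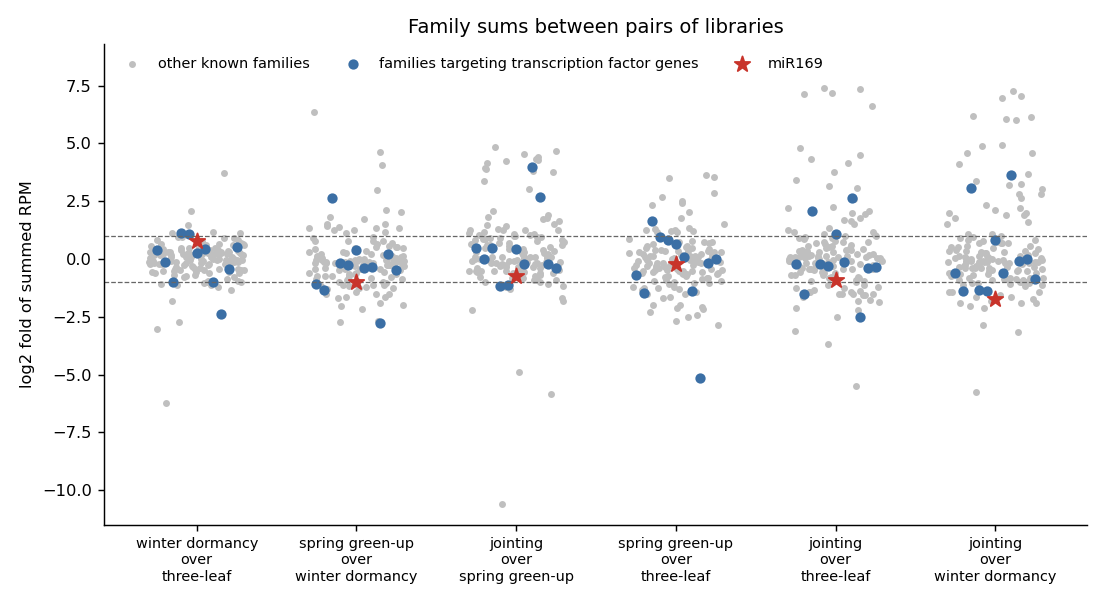
Log2 fold of summed RPM (vertical axis) for the 6 pairs of libraries, later stage over earlier stage (horizontal axis). Each point is a family above 0 in both libraries and above 5 RPM in at least 1; stars are miR169, blue points the other families with transcription factor targets, grey points the remaining families, and dashed lines mark 2-fold. The star lies outside the lines only at jointing over winter dormancy, with -1.72.

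Likeness of profiles was measured as the Euclidean distance between log2 levels centred on their own mean over the 4 libraries. Of 93 known miRNAs outside the family that averaged more than 50 RPM and were above 0 at all stages, the nearest to miR169g was miR9675-3p, at a distance of 0.42. Its levels were 329.4, 395.2, 411.2 and 126.6 RPM in the order of the stages. The next were miR7512 (0.64) and miR5054 (0.66). Of 85 families, the nearest to the miR169 sum were miR9652 (0.36), miR1023 (0.42) and miR5048 (0.45). The sums of miR9652 were 667.6, 1291.3, 781.0 and 342.1 RPM, and likewise highest at winter dormancy and lowest at jointing. With 4 libraries many miRNAs can share such a profile, so these distances are a description.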

How the data were processed

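The authors pooled RNA of 3 replicates per library, removed adaptors and low-quality reads, and kept reads of 18 to 30 nt. Reads of rRNA, tRNA, snRNA, snoRNA and repeats were discarded. Reads near a miRBase 21 plant miRNA were annotated as known, at up to 2 mismatches (Results) or fewer than 2 (Methods). The authors deposited RPM with 1 decimal, relative to all mapped reads (called TPM in the study). The 373 entries held repeated ones, which were counted once (371). Sequences came from the study's supplementary list. Reads were estimated as RPM times mapped reads. The estimate, the call rule and the intervals were checked on simulated reads with Poisson counting error, the error the intervals assume. That simulation held no PCR copies, differences between plants or listing limit, so it cannot speak of these.

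Folds were taken between single libraries with exact conditional binomial intervals. Duplexes were predicted with RNAduplex of ViennaRNA 2.7.2. Python 3.11.15, scipy 1.17.1 and pandas 2.3.3 were used. Names described were all 7 members, the families of the list where a count needed them, and the 3 nearest profiles. The alternatives were other scalings, fold and level limits, a pseudocount, zeros as missing and sums of near-identical names. Members, lists and alternatives were chosen with earlier results of these data known. The table of predicted miRNAs was used for its sequences only.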

Additional observations from a re-analysis of the deposited data

How the results depend on the processing

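With 1 library per stage no alternative can speak of differences between plants. Counting error is widest for miR169n and miR169a-5p. No paired analysis was possible because each stage had 1 library. The family sum kept its calls under every setting run. With a fold of 3 required, 4 arm differences were no longer called, namely the 5p sum at jointing over spring green-up (log2 -1.26) and over three-leaf (-1.30), and the 3p sum at jointing over spring green-up (1.14) and at spring green-up over three-leaf (-1.14). For miR169n at winter dormancy over three-leaf the log2 fold was 1.91 as listed and -0.17 when summed with miR169g, which is far more abundant. For miR169g, summing it with miR169b-5p and miR169n turned the same comparison from -0.20 to 0.32. Leaving out names that stayed under 50 RPM put the 3p share at 0% at spring green-up, where miR169o-3p is the only 3p name, and at 39.5% at jointing. The count of 7 called names became 3 with zeros as missing (35.3% of all known miRNAs) and 4 with a level over 50 RPM (29.9% of all known miRNAs). In the list of 12 families, 5 instead of 3 were called at winter dormancy over three-leaf under median-of-ratios scaling, where 22 of the 289 families were higher and 24 lower, against 22 higher and 21 lower per mapped read. Scaling by the total of known miRNAs shifted all log2 folds by -0.25 in that comparison, by 0.22 at spring green-up over winter dormancy and by 0.36 at jointing over winter dormancy. Median-of-ratios scaling shifted them by at most 0.10. All known miRNAs called at jointing over winter dormancy were 88 higher and 61 lower, and 103 higher and 45 lower when scaled by the total.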

Other observations

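The exclusive listing of 3p names was not particular to miR169. Of the 3 pairs of miR169 3p names, 3 were never above 0 in the same library, and so were 11 of 14 pairs of 3p names within 7 other families. Outside the family, the known sequence nearest to a miR169 name was miR399b, which is 6 changes away from miR169g. No predicted miRNA was closer than 9 changes to any of the 7 names, so the predicted table held no further near-identical sequence.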
